A study of Mus musculus with 31 samples.

Results

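T helper 17 (Th17) cells sorted from the inflamed central nervous system (CNS) of mice were compared, gene by gene, with Th17 cells kept in culture. The CNS group held the 4 libraries labelled Cyp11a1 WT, and the culture group the 3 untreated control libraries, so 7 of the 31 libraries of the series entered. They were taken by their labels, and the tables were joined by gene symbol. Of 31053 symbols, 10491 had enough counts to be tested. The study deposited 3 experiments, on T cells lacking Cyp11a1, on T cells lacking the glucocorticoid receptor (GR), and on cultures given dexamethasone (Dex), TGF-β1 or both. The CNS cells started as naive 2D2+ T cells of Cyp11a1 WT (C57/B6) mice. They were made into Th17Hom cells, the homeostatic kind, in culture, transferred into Rag1 KO recipients, and sorted as 2D2+ from the CNS at the peak of experimental autoimmune encephalomyelitis (EAE). The cultured cells were Th17Inf cells, the inflammatory kind, differentiated from WT (C57/B6) cells that came from spleen and draining lymph node, kept for 2 days without added drug or cytokine, and sorted alive. Each library came from about 2000 sorted cells. Rag1 KO recipients lack T and B cells of their own but keep myeloid and NK cells. The labels do not say whether the cultured cells carried the 2D2 receptor, or whether each library stands for its own recipient mouse or culture. Setting, Th17 type, experiment and, by the segment counts below, receptor use differed together, so their contributions cannot be told apart. The p-values measure only the spread between libraries.

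Th17 cells are CD4 T cells that secrete interleukin 17A and 17F. Homeostatic Th17 cells are known for interleukin 10 and the regulators Maf, Ahr and Ikzf3, and inflammatory ones for GM-CSF, interferon γ and granzymes. To enter the CNS in EAE, T cells leave lymph nodes, change their chemokine receptors and adhesion molecules, and meet their antigen again in the tissue, whereas cultured cells grow in medium without the surrounding tissue.

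The CNS libraries held 4358651 to 4983932 counts over 14867 to 15866 genes, and the culture libraries 2915353 to 3926168 counts over 14070 to 14832 genes. A count of 0 therefore allowed a level of up to 0.566 to 0.863 CPM (counts scaled to a common library size) in a CNS library and 0.667 to 0.953 CPM in a culture library, taking 3 counts as the floor and covering counting error only. A set of 16 abundant predicted genes took 17.3% to 39.3% of the counts in the CNS and 17.8% to 21.6% in culture. The Pearson correlation of log2 levels across genes, which are not independent replicates, was 0.962 to 0.976 within groups and 0.785 to 0.817 between them. All 7 libraries held Xist counts and none of the Y-linked Ddx3y and Eif2s3y.

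The variable segments of the T cell receptor checked the labels. The beta chain of the 2D2 receptor uses Trbv16 and its alpha chain a segment of the Trav9 family. In CNS replicates 1 to 4, 88749, 87364, 91386 and 59835 counts fell on Trbv16, which was 99.52% to 99.75% of all Trbv counts. The cultures held 101, 70 and 107 Trbv16 counts, 3.273% to 5.519% of 1830 to 2429 Trbv counts. Every CNS library was thus nearly uniform, whereas 20 or 21 segments had a count in each culture library and the most counted of them, Trbv1 or Trbv13-2, took 13.61% to 15.33%. The cultures were therefore mixed in their receptors, and receptor use differed along with setting for every gene compared. The Trav9 family took 92.85% to 93.82% of Trav counts in the CNS and 8.591% to 10.4% in culture. Most of the Trav9 counts in the CNS lay on Trav9d-3 and Trav9n-3, which are identical over all 575 transcript bases, so their counts can only be read as a sum. That sum was 19235 to 25265 counts in the CNS and 8 to 16 in culture. The last 120 bases of the counted segments, which run into the codons that open the antigen-binding loop, are shown from GENCODE M21 transcripts on GRCm38, plus strand, for Trbv16 (chr6:41151740-41152230), Trav9d-3 (chr14:52920443-52921112) and its relative Trav9-2 (chr14:53590857-53591514), which took only 767 to 996 counts in the CNS.
Trbv16: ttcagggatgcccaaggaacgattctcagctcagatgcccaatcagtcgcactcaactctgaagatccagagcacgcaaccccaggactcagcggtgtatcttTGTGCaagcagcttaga
Trav9d-3: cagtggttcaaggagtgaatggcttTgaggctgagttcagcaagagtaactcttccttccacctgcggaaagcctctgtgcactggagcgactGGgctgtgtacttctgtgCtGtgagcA
Trav9-2: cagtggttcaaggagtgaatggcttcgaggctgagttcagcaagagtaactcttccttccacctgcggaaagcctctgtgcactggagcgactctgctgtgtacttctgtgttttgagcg
The capitals in Trbv16 mark TGTGC, which holds the codon of the conserved cysteine, and those in Trav9d-3 mark the 6 bases that differ from Trav9-2.

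**Figure D1:**
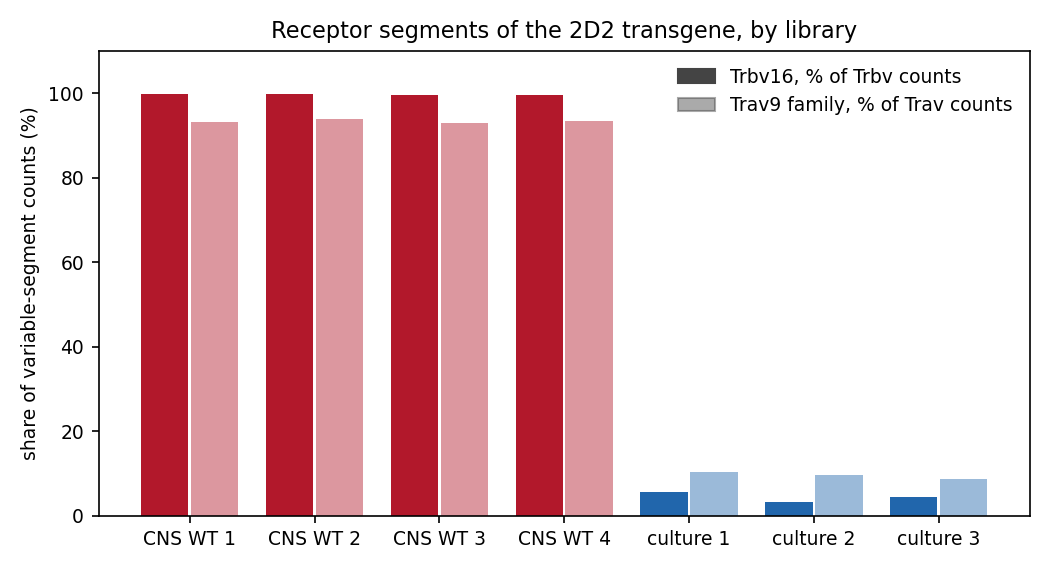
Share of Trbv16 among all Trbv counts (dark bars, %) and of the Trav9 family among all Trav counts (pale bars, %) in each of the 4 CNS (red) and 3 culture (blue) libraries. Trbv16 stands at 99.52% to 99.75% in every CNS library and at 3.273% to 5.519% in culture.

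The constant region genes followed. Trac, the constant part of the alpha chain, was at 6310, 5470, 5510 and 6210 CPM in CNS replicates 1 to 4 and at 211, 194 and 224 CPM in culture, a log2 fold change of 4.81 ± 0.10 (SE; edgeR adjusted p = 1.62e-09). Trbc2, a constant part of the beta chain, was higher in the CNS by 5.46 ± 0.09 (edgeR adjusted p = 3.29e-10). Its near-identical neighbour Trbc1 differed by 0.40 ± 0.10, though reads that fit both copies make the division between them uncertain. Of 18 T cell identity genes tested, with a median of 0.86, 11.1% were called by the rule below, against 10.6% of all genes. The other 16 were not called. Among these, Cd3e stood at 533 ± 48.1 CPM in the CNS (SD, n = 4) and 220 ± 19.2 CPM in culture (n = 3), and Cd4 at 321 ± 31 and 208 ± 12.2 CPM, so markers of CD4 T cells were present in all 7 libraries. In a library of sorted cells, fewer cells of a type and less RNA per cell cannot be told apart.

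A gene was called when its Benjamini-Hochberg adjusted p over all 10491 genes was below 0.05 in edgeR and its fold change was at least 4. By this rule 1110 genes (10.6%) were called, 469 (4.47%) higher in the CNS and 641 (6.11%) higher in culture. Without the fold requirement 5122 genes (48.8%) had an adjusted p below 0.05, of which 2500 (23.8%) were higher in the CNS and 2622 (25%) in culture. The median log2 fold change over all genes tested was 0.0042, with quartiles at -0.56 and 0.53. Of the called genes, 68 had no count in any culture and 58 none in any CNS library. For such genes a fold change is given as a lower bound against the floor of 3 counts per library, and for genes with 1 to 3 counts in a group as a ratio with its 95% counting interval.

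**Figure D2:**
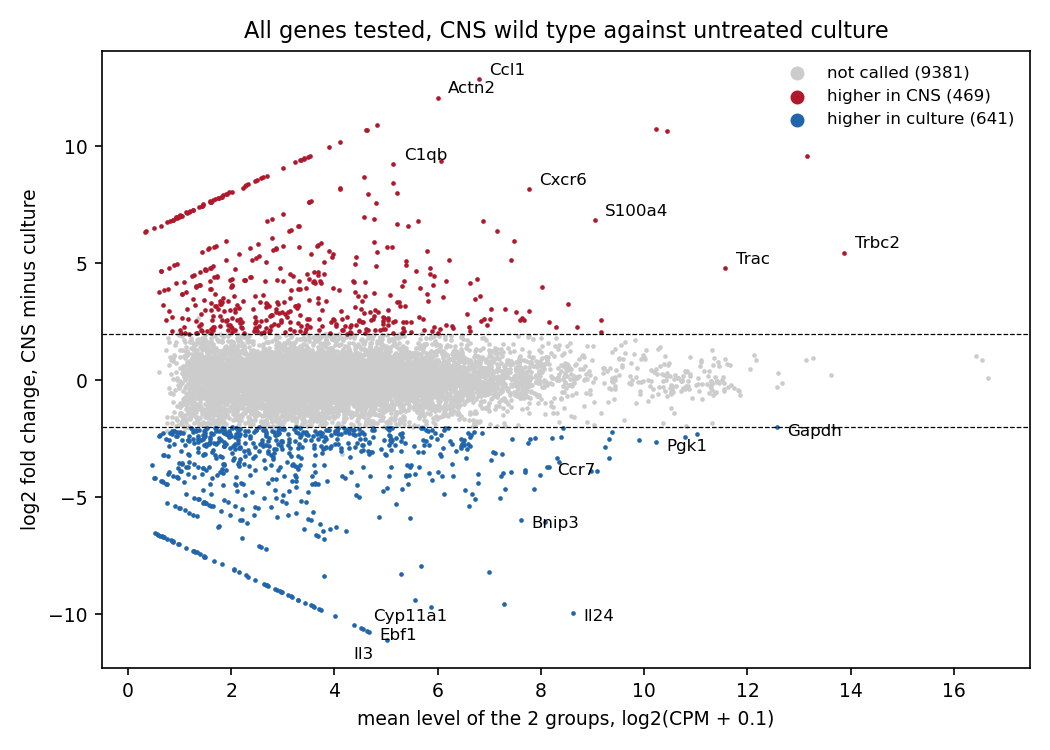
Log2 fold change (CNS minus culture, vertical) against the mean level of both groups (log2 of CPM + 0.1, horizontal) for all 10491 genes tested, with 469 genes called higher in the CNS in red and 641 called higher in culture in blue. The sloping edges at the top and bottom are genes without a count in 1 group, whose fitted fold changes depend on the prior count.

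**Figure D3:**
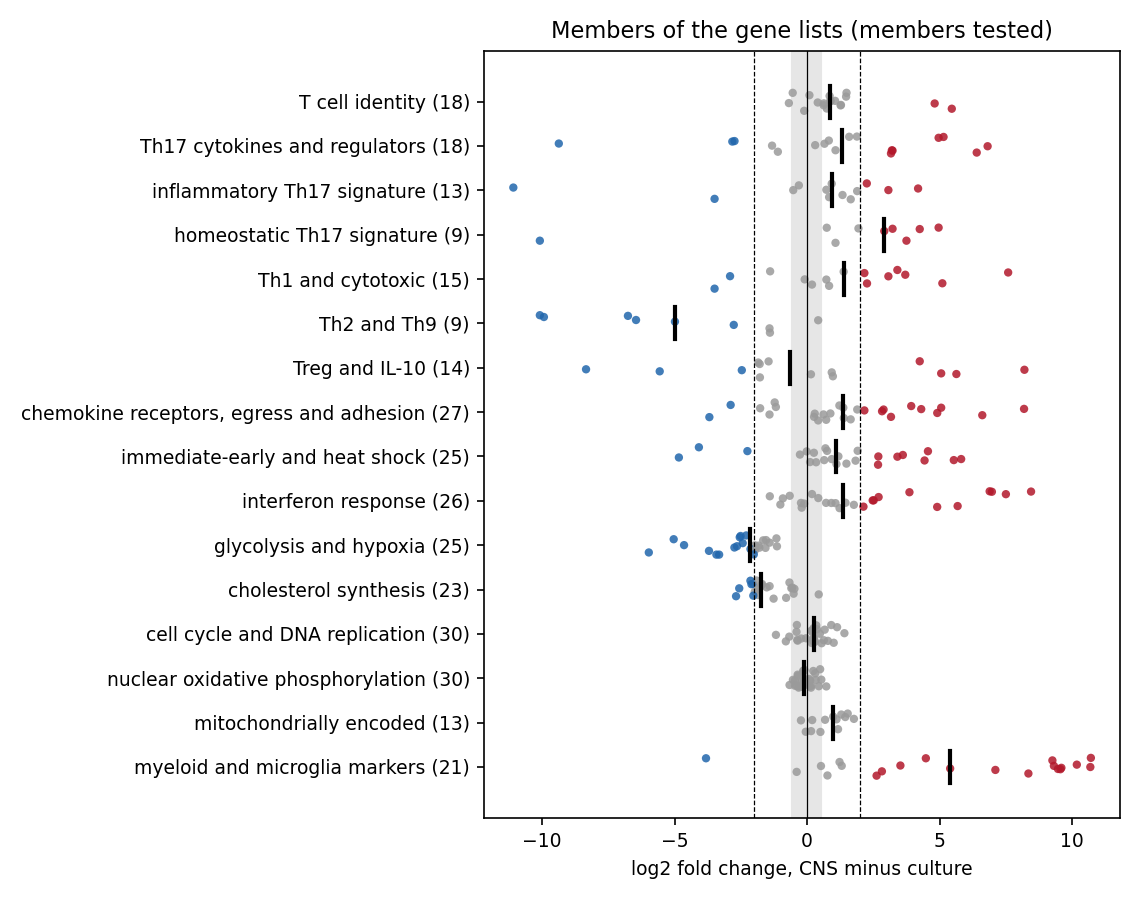
Log2 fold change (CNS minus culture) of the tested members of 16 gene lists, each point a gene, with called genes in red (higher in the CNS) or blue (higher in culture), black bars for list medians, dashed lines at a 4-fold difference and a grey band for the quartiles of all genes. All 25 glycolysis and hypoxia genes lie left of 0, while cell cycle and nuclear respiratory chain genes lie around it.

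Genes of Th17 identity differed in both directions. Of 18 tested, 7 were called higher in the CNS (among them Maf, Ahr, Il1r1, Ccr6, Tmem176a and Tmem176b) and 3 higher in culture (Il21, Irf4 and Sox5), against 4.47% and 6.11% of all genes, with a list median of 1.33. Maf, a transcription factor that drives Il10, was at 49.3, 34.8, 33.4 and 46 CPM in CNS replicates 1 to 4 and at 0.953, 1.24 and 1.56 CPM in culture. The groups did not overlap, and the log2 fold change was 4.96 ± 0.27 (edgeR adjusted p = 4.4e-07). Ahr, the aryl hydrocarbon receptor, had 47 counts in the CNS and 3 in culture, a ratio of 10.2 (3.29 to 51.4). Il1r1, the receptor of interleukin 1, had 177 and 3 counts, a ratio of 38.5 (13 to 189). Tmem176a and Tmem176b encode membrane proteins of Th17 and myeloid cells, and both rose, by 6.81 ± 0.31 and 6.40 ± 0.28.

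The signature cytokines themselves were not called. Il17a was at 51.4, 111, 61.6 and 31.6 CPM in the CNS and at 19.7, 11.4 and 21.3 CPM in culture. Its groups did not overlap, but the log2 fold change of 1.88 ± 0.42 (edgeR adjusted p = 0.00519) stayed under the 4-fold line, and it crossed that line at 2.09 without CNS replicate 4 and at 2.06 without culture replicate 3. Il17f was at 19.3, 22.5, 30.7 and 1.15 CPM in the CNS and at 16.2, 3.73 and 12.7 CPM in culture, with an edgeR adjusted p of 0.418. Here the groups overlapped, and CNS replicate 4 lay below all the others. Il23r, the receptor that sustains pathogenic Th17 cells, was low throughout, at 4.52 ± 0.894 and 2.84 ± 0.158 CPM. Il22 had 2 counts in the CNS and 14 in culture and was not tested. Of the genes higher in culture, Il21, an autocrine Th17 cytokine, differed by -2.82 on the log2 scale (SE 0.15, edgeR adjusted p = 4.22e-07), and Irf4, a factor induced by receptor signalling, by -2.74 (SE 0.23). Sox5 had no CNS count and stood at 19.4 ± 8.01 CPM in culture, at least 28.1-fold higher.

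The labels name homeostatic Th17 cells for the CNS and inflammatory ones for the culture, and lists of genes known from each were counted. Of 9 homeostatic genes tested, 5 were called higher in the CNS (Ikzf3, Maf, Ahr, Il10 and Slamf6) and 1 higher in culture (Il9). The median was 2.91, and 4.47% and 6.11% of all genes were called in these directions. Ikzf3, a zinc finger regulator, stood at 50.8 ± 3.87 CPM in the CNS (SD, n = 4) and 3.74 ± 0.667 CPM in culture (n = 3). Il10 was at 7.83, 2.74, 1.7 and 10.1 CPM in the CNS, with 91 counts there and 3 in culture, a ratio of 19.8 (6.57 to 97.8). It was highest in CNS replicates 1 and 4, and leaving out either left 3 homeostatic genes called higher in the CNS and 1 higher in culture. Of 13 inflammatory genes tested, 3 were called higher in the CNS (Ccl4, Ccl5 and Casp1) and 2 higher in culture (Il3 and Gzmb). Against the same 4.47% and 6.11% of all genes, this list had a median of 0.93. Csf2, which encodes GM-CSF, had no CNS count and 4 in culture and was not tested. Gzmb, the cytotoxic protease granzyme B, was at 21.7, 44.9, 93.9 and 50.3 CPM in the CNS and at 607, 645 and 539 CPM in culture. All 3 cultures stood far above the CNS libraries, with a log2 fold change of -3.49 ± 0.40 (edgeR adjusted p = 0.000203). Casp1, the protease that matures interleukin 1β, was higher in the CNS by 4.18 ± 0.19. Ccl4, a chemokine for monocytes and T cells, differed by 2.25 ± 0.61 and fell below the line without CNS replicate 3 (1.70) or culture replicate 1 (1.84).

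Type 2 and Th9 genes were called in 1 direction in the main fit. Of 9 tested, 6 were called higher in culture (Il4, Il5, Il13, Il9, Il24 and Pparg) and none higher in the CNS, against 6.11% and 4.47% of all genes. The median was -4.98. A member was called higher in the CNS, 1 in each case, with no filter on low counts and in 1 fit over all 31 libraries. The same held with GR WT CNS as the CNS group. Il13 was at 0, 0.843, 0.566 and 0 CPM in CNS replicates 1 to 4 and at 39.1, 33.6 and 37.6 CPM in culture. Il4 was at 1.15, 4, 0 and 0 CPM in the CNS and at 38.1, 44.5 and 46.9 CPM in culture, and Il5 had 4 counts in the CNS and 316 in culture. All 3 cultures held these transcripts and the CNS libraries were at or near 0, with log2 fold changes of -6.45 ± 0.40 for Il13, -4.99 ± 0.60 for Il4 and -6.76 ± 0.44 for Il5. Il9 had no CNS count and was at 42.2, 15.9 and 38.3 CPM in culture, at least 46.7-fold higher. Il24, a member of the interleukin 10 family, was at 873, 697 and 782 CPM in culture and had counts in 1 CNS library alone, replicate 3, at 2.64 CPM. Il3, a growth factor of myeloid progenitors, had no CNS count and stood at 87.3, 45 and 60.7 CPM in culture, at least 93.5-fold higher. Il2, the growth factor that T cells make after activation, was at 3.46, 3.79, 16 and 0 CPM in the CNS and at 71.1, 71.1 and 105 CPM in culture (log2 fold change -3.71 ± 0.67, edgeR adjusted p = 0.00232). The cultures labelled Th17Inf thus held Il17a together with type 2 cytokine transcripts. Over all 28 cytokine and chemokine genes tested, 8 were called higher in the CNS and 9 higher in culture, against 4.47% and 6.11% of all genes. The list median was 1.17, and the 8 became 5 without CNS replicate 1, 2 or 3.

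Of 15 Th1 and cytotoxic genes tested, 7 were called higher in the CNS (Ifng, Cxcr3, Il18r1, Il18rap, Gzma, Nkg7 and Ccl5) and 2 higher in culture (Il12rb2 and Gzmb). The median was 1.38, and 4.47% and 6.11% of all genes were called in these directions. Ifng, which encodes interferon γ, was at 21.7, 52.5, 72.6 and 21.3 CPM in the CNS and at 9.84, 1.24 and 2 CPM in culture, without overlap (log2 fold change 3.40 ± 0.75, edgeR adjusted p = 0.00619). Both chains of the interleukin 18 receptor rose, Il18r1 by 5.10 ± 0.38, and Il18rap with 952 counts in the CNS and 3 in culture, a ratio of 207 (70.7 to 1010). Tbx21, the Th1 master regulator, was not called, at 26.2 ± 9.21 and 15.9 ± 4.75 CPM. Gzma, the protease granzyme A, was at 36.4, 43.2, 256 and 74.5 CPM in the CNS and at 10.5, 7.46 and 6.23 CPM in culture. CNS replicate 3 was the highest for Gzma and for the NK cell receptor gene Klrd1, at 62.2 CPM against 11.2 to 26.2 CPM in the other CNS libraries. The summed level of 12 NK and CD8 T cell markers was 86.59 to 131.4 CPM in the other CNS libraries, 378.7 CPM in replicate 3 and 20.68 to 22.12 CPM in culture. Klrc1, another NK receptor gene, was not called without culture replicate 1 (edgeR adjusted p = 0.0618) or 3 (0.0701). Cd8a, Ncr1 and Eomes were too low to be tested, and the part of such cells in the Th1 and cytotoxic genes was not tested.

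Genes of homing and residence were called in both directions. Of 27 chemokine receptor, egress and adhesion genes tested, 10 were called higher in the CNS (Ccr1, Ccr2, Ccr6, Ccr9, Cxcr3, Cxcr6, P2rx7, Cd69, Itga4 and Itgae) and 2 higher in culture (among them Ccr7). The median was 1.36, and 4.47% and 6.11% of all genes were called in these directions. Cxcr6, the CXCL16 receptor of tissue-resident T cells, was at 434, 490, 400 and 405 CPM in CNS replicates 1 to 4 and at 1.91, 1.49 and 1.11 CPM in culture. That was a log2 fold change of 8.18 ± 0.18 (edgeR adjusted p = 2.29e-09). Scaled over the whole series, Cxcr6 lay between 222 and 521 CPM in all 19 CNS libraries, knockouts included, and between 0.824 and 2.18 CPM in all 12 cultures. Ccr2, the receptor that guides cells into the inflamed CNS, was at 90.8, 61.1, 73.7 and 96.3 CPM in the CNS and at 2.22, 2.49 and 3.11 CPM in culture (4.91 ± 0.24, edgeR adjusted p = 2.19e-07). Ccr6, used by Th17 cells to cross the choroid plexus, was at 83.4, 76.5, 53.2 and 81.7 CPM against 8.57, 9.69 and 6.45 CPM (3.16 ± 0.22). The gut-homing receptor gene Ccr9 had 351 counts in the CNS and 2 in culture, a ratio of 115 (31.5 to 950).

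Ccr7 moved the other way. This receptor gene, which holds T cells in lymph nodes, was at 35.9, 41.3, 44.7 and 37.4 CPM in the CNS and at 514, 498 and 532 CPM in culture, and the groups lay far apart (-3.69 ± 0.10, edgeR adjusted p = 7.06e-09). Cd69, which holds cells in tissue by blocking the egress receptor S1pr1, rose by 2.83 ± 0.15, while S1pr1 itself was at 7.23 ± 1.48 and 16.2 ± 1.4 CPM and was not called. Itga4, a chain of the integrin that binds VCAM-1 on brain vessels, rose by 2.88 ± 0.19, and Itgae, the chain CD103 of resident cells, by 5.06 ± 0.52. P2rx7, an ATP-gated channel, was at 94.6 ± 4.29 and 6.25 ± 1.76 CPM (3.93 ± 0.18). Among chemokines, Ccl1 had no culture count and was at 116, 196, 488 and 88.9 CPM in the CNS, at least 282-fold higher and highest in replicate 3. Ccl20, the ligand of the Ccr6 product, had 186 counts in the CNS and 2 in culture, a ratio of 60.7 (16.6 to 505), though CNS replicate 4 held only 0.288 CPM. Of 13 stem-like and memory genes tested, Slamf6 was called higher in the CNS and 4 higher in culture, among them Ccr7, Bach2 and Satb1. The list median was -1.01, beside 4.47% and 6.11% of all genes called in these directions. Tcf7, the factor TCF-1 of that state, was at 94.1 ± 15.1 CPM in the CNS and 24.5 ± 1.02 CPM in culture (1.94 ± 0.15), just under the 4-fold line, which it reached without CNS replicate 2 (2.02) or 3 (2.00). Calls higher in the CNS in this list came to 3 without CNS replicate 2 or 3 and to 2 without culture replicate 3.

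**Figure D4:**
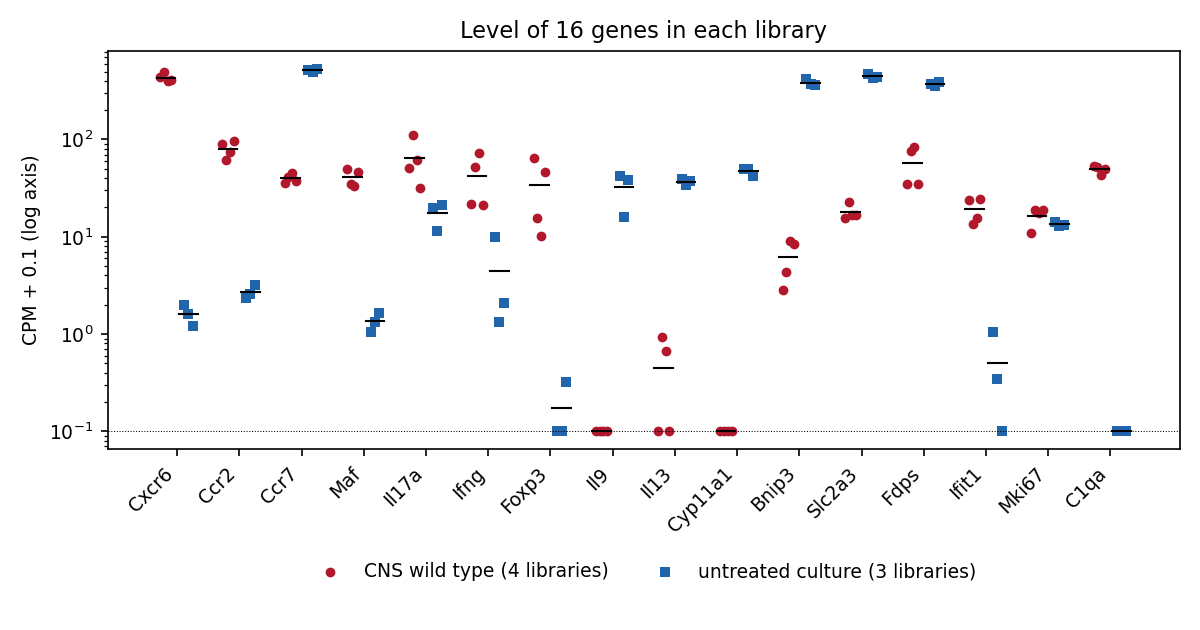
Level of 16 genes in every library (CPM + 0.1, log axis), with CNS libraries as red circles, culture libraries as blue squares and black bars for group means; points on the dotted line had no count. Cxcr6, Ccr2, Maf and C1qa stand higher in all 4 CNS libraries, Ccr7, Bnip3, Slc2a3 and Cyp11a1 higher in all 3 cultures, and the proliferation gene Mki67 overlaps.

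Regulatory and inhibitory genes were divided. Of 14 regulatory T cell and interleukin 10 genes tested, 4 were called higher in the CNS (Foxp3, Il10, Itgae and Prdm1) and 3 higher in culture (Il2ra, Lrrc32 and Gpr83). The median was -0.66, and 4.47% and 6.11% of all genes were called in these directions. With libraries scaled by their totals alone, 6 were called higher in culture. Foxp3, the regulatory T cell factor, was at 64.5, 15.4, 9.99 and 46.6 CPM in CNS replicates 1 to 4 and had 1 count in all cultures together, against 568 in the CNS, a ratio of 371 (66.3 to 14700). It varied within the CNS, with replicates 1 and 4 above replicates 2 and 3. Prdm1, which encodes the repressor Blimp-1, had 250 and 3 counts, a ratio of 54.4 (18.4 to 266). Il2ra, the interleukin 2 receptor chain CD25, was at 72.2 ± 7.27 CPM in the CNS (SD, n = 4) and 398 ± 13.4 CPM in culture (-2.46 ± 0.10). Lrrc32, which anchors latent TGF-β1 on regulatory T cells, had 1 count in the CNS and 323 in culture, a ratio of 495 in favour of culture (88.2 to 19600). Of 19 inhibitory and costimulatory receptor genes, 6 were called higher in the CNS (Havcr2, Cd160, Nt5e, Tox, Cd226 and Cd96) and 2 higher in culture (Btla and Tnfrsf9). Against the same 4.47% and 6.11% of all genes, this list had a median of 1.33, and the 2 became 4 with scaling by totals. Havcr2, which encodes the inhibitory receptor TIM-3, was at 23.1 ± 4.53 and 1.28 ± 0.047 CPM (4.14 ± 0.27, edgeR adjusted p = 1.49e-06), and Tox, a factor of chronically stimulated T cells, had 298 and 2 counts, a ratio of 97.3 (26.7 to 807). Tnfrsf9, the activation-induced receptor 4-1BB, stood at 64.1 ± 7.48 and 934 ± 52.4 CPM (-3.87 ± 0.10).

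Glycolysis and hypoxia genes were higher in culture without exception among those tested. All 25 had an adjusted p below 0.05 in that direction, which 25% of all genes did, and 14 were also past 4-fold, against 6.11% of all genes, with a median of -2.14. The summed level of the list was 6161, 8462, 9038 and 7167 CPM in CNS replicates 1 to 4 and 33300, 33730 and 34310 CPM in culture. Slc2a3, a glucose transporter, was at 15.4, 22.5, 16.6 and 16.7 CPM in the CNS and at 469, 431 and 440 CPM in culture (-4.64 ± 0.13, edgeR adjusted p = 9.33e-09). Bnip3, a hypoxia-induced mitophagy receptor, was at 2.76, 4.21, 9.05 and 8.34 CPM against 416, 375 and 360 CPM (-5.97 ± 0.27, edgeR adjusted p = 1.36e-07). The enzymes of the pathway moved less but at higher levels. Pgk1, phosphoglycerate kinase, was at 229, 368, 402 and 330 CPM in the CNS and at 2140, 2040 and 2060 CPM in culture (-2.65 ± 0.16). Gapdh, often used to normalise measurements, was at 2420 ± 368 and 9780 ± 223 CPM (-2.01 ± 0.11), at the edge of the rule, which it missed without CNS replicate 1 (-1.92) or 4 (-1.99), and Ldha at 1140 ± 215 and 3980 ± 95.4 CPM (-1.80 ± 0.13) missed it. Egln3, an oxygen-sensing hydroxylase, Slc16a3, the lactate exporter, Ero1l and Ndrg1 differed by -5.03 ± 0.20, -3.42 ± 0.23, -3.70 ± 0.13 and -3.32 ± 0.15. P4ha2, a collagen prolyl hydroxylase, and Mgarp, a mitochondrial protein, which were not on the list, were also among the genes furthest higher in culture.

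The promoters of these genes were searched for ACGTG, the core letters bound by hypoxia-inducible factors, on both strands of the 250 bases before the start of transcription. It was found in 11 of 22 list members with an entry (50%), in 7 of 11 called ones (63.6%), in 22.9% of the promoters of all genes tested and in 4477 of 27025 promoters in all (16.6%). Sequences are from RefSeq on GRCm38.p6, for Bnip3 at chr7:138909507-138909756 (minus strand), Pgk1 at chrX:106186850-106187099 (plus strand) and Slc16a3 at chr11:120948817-120949066 (plus strand). They are shown because these genes had the list's highest fold change, a glycolytic enzyme's and the lactate exporter's, and capitals mark the matches, read as ACGTG or, on the other strand, as CACGT.
Bnip3: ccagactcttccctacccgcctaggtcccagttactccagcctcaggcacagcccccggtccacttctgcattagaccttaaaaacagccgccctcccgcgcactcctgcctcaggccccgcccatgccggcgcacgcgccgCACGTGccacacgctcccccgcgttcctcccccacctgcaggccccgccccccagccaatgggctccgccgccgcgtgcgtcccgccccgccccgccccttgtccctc
Pgk1: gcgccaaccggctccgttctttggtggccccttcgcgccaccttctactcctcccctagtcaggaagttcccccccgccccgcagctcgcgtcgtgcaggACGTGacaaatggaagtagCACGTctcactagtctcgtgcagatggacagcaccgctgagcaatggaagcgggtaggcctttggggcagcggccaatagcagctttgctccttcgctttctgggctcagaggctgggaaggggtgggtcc
Slc16a3: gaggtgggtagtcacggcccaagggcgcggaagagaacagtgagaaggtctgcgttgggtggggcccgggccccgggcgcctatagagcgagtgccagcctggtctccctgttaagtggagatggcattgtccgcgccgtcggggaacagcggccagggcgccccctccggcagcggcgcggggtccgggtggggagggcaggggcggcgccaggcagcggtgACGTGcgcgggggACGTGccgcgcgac
Each of the 3 held 2 matches, which in Bnip3 overlap within CACGTG. A match describes the letters and does not show binding.

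Cholesterol synthesis ran the same way. Of 23 genes tested, 22 were lower in the CNS, 20 with an adjusted p below 0.05 (25% of all genes). In that direction 6 were called (6.11% of all genes), among them Hmgcs1, Mvd, Fdps and Insig1, and the median was -1.72. Fdps, farnesyl diphosphate synthase, was at 34.8, 76.5, 84.6 and 35.1 CPM in the CNS and at 374, 356 and 392 CPM in culture (-2.68 ± 0.30, edgeR adjusted p = 0.000104). Replicates 2 and 3 were above replicates 1 and 4 within the CNS, but all 4 lay below the cultures. Insig1, a sterol-sensing regulator of the pathway, was at 10.5 ± 1.5 and 43.2 ± 3.18 CPM (-2.03 ± 0.15), close to the 4-fold line, which it missed without CNS replicate 4 (-1.96) or culture replicate 1 (-1.98). The count of calls was 3 without CNS replicate 4 and 11 when libraries were scaled by their totals alone. In the lipid list, 3 of 17 were called in each direction, against 4.47% of all genes higher in the CNS and 6.11% higher in culture, with a median of -0.41. Abca1, a cholesterol exporter, was called higher in culture, but not without CNS replicate 3 (-1.73) or culture replicate 3 (edgeR adjusted p = 0.0624), and Mylip, which encodes a ubiquitin ligase, higher in the CNS, but not without CNS replicate 1 (1.97). The desaturase genes Scd1 and Scd2 were higher in culture, Scd1 with no CNS count and 25.7 ± 1.66 CPM in culture, at least 37.4-fold higher, and Scd2 by a log2 fold change of -5.07 ± 0.12. Apoe and Cd36 were also called higher in the CNS, and both are expressed by myeloid cells, whose values are given below.

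The series targets Cyp11a1 and the glucocorticoid receptor gene Nr3c1, and both were read in every library. Cyp11a1 (chromosome 9, 58006411 to 58027023, plus strand, GRCm38), which encodes the enzyme that turns cholesterol into pregnenolone, had 155, 198 and 189 counts in the cultures and none in the 4 CNS libraries, although those carry the WT allele. It was at least 68.1-fold higher in culture, at 46.8 ± 4.15 CPM. Scaled over all 31 libraries it lay between 0 and 2.37 CPM in the CNS and between 17.6 and 56.7 CPM in culture. Nr3c1 was at 13.1, 10.1, 8.48 and 12.9 CPM in the CNS and at 4.13, 2.73 and 2.89 CPM in culture (1.78 ± 0.26, edgeR adjusted p = 0.000321), under the 4-fold line. Of 8 steroid synthesis genes tested, Cyp11a1 was the one called higher in culture and Hsd11b1 the one called higher in the CNS. The list median was -0.37, beside 6.11% and 4.47% of all genes called in these directions. Hsd11b1, whose product reactivates inert glucocorticoids, was at 43.1, 37.5, 40.5 and 32.8 CPM in the CNS and at 3.81, 1.49 and 1.11 CPM in culture (4.25 ± 0.30, edgeR adjusted p = 2.39e-06). Of 14 glucocorticoid receptor genes and targets tested, 2 were called, both higher in the CNS, where 4.47% of all genes were called, and 4 without CNS replicate 2 or 3, with a median of 0.89. With so few calls nothing is read from the count. The 2 were Dusp1 and Anxa1, the latter with 851 counts against 1, a ratio of 556 (99.5 to 22000). The targets Fkbp5 and Tsc22d3 were not called, at 12 ± 5.88 against 3.97 ± 0.938 CPM and 66.7 ± 40.8 against 43.1 ± 2.39 CPM.

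Interferon-response genes were higher in the CNS where they were called, 11 of 26 tested (Ifit1, Ifit2, Ifit3, Mx1, Oas1a, Oasl2, Rsad2, Ifi203, Gbp7, Iigp1 and Cxcl10). None was called higher in culture, against 4.47% and 6.11% of all genes, and the median was 1.33. At an adjusted p below 0.05 alone, 17 were higher in the CNS and 4 higher in culture, against 23.8% and 25% of all genes. Ifit1, an antiviral RNA-binding protein, was at 24, 13.3, 15.5 and 24.4 CPM in the CNS and at 0.953, 0.249 and 0 CPM in culture (5.68 ± 0.55, edgeR adjusted p = 1.97e-05). Ifit3 had 241 counts in the CNS and 1 in culture, a ratio of 157 (28 to 6240), and Rsad2, which encodes viperin, had no culture count and was at 5.3, 2.74, 2.07 and 4.89 CPM, at least 4.76-fold higher. These were low transcripts in all libraries. The summed level of the list overlapped between the groups, at 3881 to 4176 CPM in the CNS and 3573 to 4138 CPM in culture, and 2 were called when a mean count of 50 was required. Iigp1 was not called without culture replicate 3 (1.86). Ifi203 and its paralog Mndal, which share sequence and are uncertain for that reason, had 1218 against 2 and 1289 against 3 counts. A core of the interferon-stimulated response element, GAAA, any 2 bases and GAAA again, was searched on both strands of the same 250 bases. It was found in 12 of 18 list members with an entry (66.7%), in 6 of 9 called ones (66.7%), in 3% of the promoters of all genes tested and in 821 of 27025 promoters (3.04%). The list was chosen for interferon response, and called members matched no more often than the list, so these shares say nothing about CNS against culture. RefSeq sequences on GRCm38.p6 are given for Ifit1 at chr19:34640639-34640888 (plus strand), Ifit3 at chr19:34583279-34583528 (plus strand) and Rsad2 at chr12:26456453-26456702 (minus strand). They were picked from the called antiviral members that held a match, and their groups did not overlap. Capitals mark the matches, here all on the other strand as TTTC, any 2 bases and TTTC.
Ifit1: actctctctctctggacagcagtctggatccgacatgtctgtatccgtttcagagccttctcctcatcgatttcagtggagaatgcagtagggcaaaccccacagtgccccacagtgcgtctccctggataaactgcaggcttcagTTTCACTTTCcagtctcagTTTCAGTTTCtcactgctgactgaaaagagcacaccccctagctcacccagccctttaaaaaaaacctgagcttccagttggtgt
Ifit3: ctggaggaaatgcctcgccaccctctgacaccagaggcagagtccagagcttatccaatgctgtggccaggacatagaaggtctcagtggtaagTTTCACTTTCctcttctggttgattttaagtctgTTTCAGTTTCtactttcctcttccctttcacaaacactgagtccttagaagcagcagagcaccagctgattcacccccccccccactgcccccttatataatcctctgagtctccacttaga
Rsad2: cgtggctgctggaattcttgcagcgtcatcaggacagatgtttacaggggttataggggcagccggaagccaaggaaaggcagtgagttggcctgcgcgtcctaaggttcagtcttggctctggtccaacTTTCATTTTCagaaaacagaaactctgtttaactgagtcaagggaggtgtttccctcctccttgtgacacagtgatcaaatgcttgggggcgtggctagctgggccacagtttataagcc
Ifit1 and Ifit3 each held 2 matches and Rsad2 held 1, while the called members Ifit2, Oasl2 and Ifi203 held none. As above, a match describes the letters and does not show binding.

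Of 25 immediate-early and heat shock genes tested, 8 were called higher in the CNS (Fos, Fosb, Jun, Egr1, Dusp1, Zfp36, Hspa1a and Hspa1b) and 3 higher in culture (Nr4a2, Atf3 and Ier3). The median was 1.11, and 4.47% and 6.11% of all genes were called in these directions. Fos, a subunit of the AP-1 factor, was at 176, 92.5, 84.3 and 80.8 CPM in the CNS and at 1.91, 3.23 and 1.78 CPM in culture (5.53 ± 0.41, edgeR adjusted p = 3.94e-06). Egr1, induced by receptor and growth factor signals, was at 130, 65.5, 58.4 and 90.6 CPM against 13, 12.2 and 14.7 CPM (2.69 ± 0.29). Replicate 1 was the highest CNS library for Fos, Egr1 and Dusp1, but no CNS library reached the culture range. Hspa1a, an inducible chaperone whose reads are hard to divide from those of its paralog Hspa1b, was at 168, 132, 105 and 35.4 CPM against 4.13, 2.49 and 7.12 CPM (4.56 ± 0.63, edgeR adjusted p = 0.000574). Before sorting, the CNS tissue spent 20 minutes at 37 °C in collagenase D (2.5 mg/ml), and no such step is given for the cultures, so digestion and setting cannot be told apart for these genes. Atf3, a stress factor, went the other way, at 7.6, 3.79, 4.71 and 2.01 CPM in the CNS and 77.8, 76.6 and 81.4 CPM in culture (-4.08 ± 0.26), as did Ier3 (-4.84 ± 0.20). Nr4a2, a nuclear receptor induced by receptor signalling, was not called without culture replicate 3 (-1.89). Of 14 NF-κB target genes tested, Nfkbid, Bcl2a1b and Bcl2a1d were called higher in the CNS and none higher in culture, against 4.47% and 6.11% of all genes. The list went both ways, with a median of -0.24. At an adjusted p below 0.05 alone, 5 were higher in the CNS and 6 higher in culture, against 23.8% and 25% of all genes. Bcl2a1b and Bcl2a1d are close copies whose reads may be divided wrongly, and Nfkbid was not called without CNS replicate 1 (1.91) or culture replicate 1 (1.93).

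No proliferation or respiration gene tested reached the 4-fold line with an adjusted p below 0.05, as 10.6% of all genes did. None of 30 cell cycle and DNA replication genes tested was called, and the median was 0.24. In this list 4 had an adjusted p below 0.05 with higher CNS levels and 2 with higher culture levels, against 23.8% and 25% of all genes. The summed level of the list was 1278, 2636, 2578 and 1678 CPM in CNS replicates 1 to 4 and 1739, 1882 and 1794 CPM in culture, so the CNS libraries lay on both sides of the cultures. Mki67, a marker of cycling cells, was at 16.4 ± 3.77 and 13.3 ± 0.557 CPM. None of 30 nuclear genes of the respiratory chain was called, with a median of -0.10. An adjusted p below 0.05 was found for 5 with higher CNS levels and 8 with higher culture levels, against 23.8% and 25% of all genes. None of 13 mitochondrially encoded genes reached 4-fold either. However, 10 had an adjusted p below 0.05 and higher CNS levels, as 23.8% of all genes did, with a median of 0.98. Their summed level was 16100 to 17440 CPM in the CNS and 9371 to 10340 CPM in culture. Of 21 amino acid and stress response genes tested, 4 were called higher in culture (Aldh1l2, Pycr1, Sesn2 and Cth) and none higher in the CNS. The median was -0.38, and 6.11% and 4.47% of all genes were called in these directions. Aldh1l2 was not called without CNS replicate 3 (-1.89) or culture replicate 3 (edgeR adjusted p = 0.0813). Besides, none of 19 Myc targets and ribosome biogenesis genes was called (median -0.11).

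Transcripts of myeloid cells and microglia were present in the sorted CNS cells. Of 21 markers tested, 15 were called higher in the CNS and H2-Ab1 higher in culture, against 4.47% and 6.11% of all genes. The median was 5.39, or 4.48 with genes at 0 set to their bound. Members without a culture count passed the filter through the CNS libraries alone, so their direction was fixed. Nothing is therefore read from the share called or the median. C1qa, a complement gene of microglia, was at 52.7, 51.8, 43 and 50 CPM in the CNS and had no culture count, at least 62.6-fold higher. Tyrobp, Csf1r, Cx3cr1, Trem2 and Lyz2 also had no culture count and stood at 48.6, 18.7, 22.3, 9.57 and 21.1 CPM on average. Across the whole list of 28 markers, 13 had no count in any culture, and the summed level was 964.9, 864.2, 681.6 and 998.8 CPM in CNS replicates 1 to 4 and 518.2 to 532.9 CPM in culture. The culture sum came largely from H2-Ab1, an MHC class II gene at 394, 369 and 392 CPM there and 31.6, 45.7, 9.61 and 22.7 CPM in the CNS. Its partner H2-Aa was at 23.6 ± 10.8 CPM in the CNS and 1.95 ± 1.2 CPM in culture. The 10 defining markers together took 0.0251% to 0.03% of the CNS counts and at most 6.86e-05% in culture. Of 20 cathepsin and lysosome genes tested, Ctsd, Ctss, Ctsw and Lgmn were called higher in the CNS and none in culture. The list median was 0.81, beside 4.47% and 6.11% of all genes called in these directions. Ctsd, Ctss, Lgmn, Apoe and Cd36 are expressed by such cells too, and the part of the myeloid transcripts in these and in the interferon and chemokine genes was not tested.

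Markers of other cells were few. Summed red cell markers were at most 6.986 CPM in any of the 7 libraries and neutrophil markers at most 17.26 CPM. B cell markers summed to 18.12 to 26.26 CPM in the CNS and 78.54 to 89.55 CPM in culture, of which Ebf1, a B lineage factor with no CNS count, gave 54.6, 41.8 and 55.2 CPM, while Ms4a1, Cd79a and Pax5 were too low to be tested. Neural and glial markers summed to 116.9 to 147.4 CPM in the CNS and 293.7 to 310.2 CPM in culture, where the glycolytic gene Aldoc, also used as an astrocyte marker, gave 202, 216 and 201 CPM. Gfap, Aqp4 and Mog were too low to be tested. Endothelial and stromal markers summed to 31.39 to 47.16 CPM in the CNS and 13.34 to 17.15 CPM in culture.

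The genes named by rank give the remaining range, the 15 with the largest fitted fold change in each direction among 95 and 135 called genes with a mean of at least 50 CPM in the higher group. Fitted values of genes without counts in 1 group depend on the prior count, so the order within each set carries no meaning. In the CNS these were Ccl1, Actn2, Ly6g5b, C1qb, Ifi203, Cxcr6, Mndal, Il18rap, Fgl2, S100a4, Tmem176a, Krt83, Tff1, Il17re and Tmem176b. Actn2, an actin cross-linker of muscle, had no culture count and was at 103, 173, 104 and 131 CPM in the CNS, at least 162-fold higher. S100a4, a calcium-binding protein of memory T cells, was at 1120, 1050, 885 and 1150 CPM in the CNS and at 4.76, 9.69 and 12.2 CPM in culture (6.83 ± 0.24, edgeR adjusted p = 3.15e-08). Il17re, the receptor of interleukin 17C, was at 84.7 ± 14.4 and 0.845 ± 0.551 CPM (6.58 ± 0.31), and Fgl2, a suppressive protein of regulatory T cells, at 54 ± 9.59 and 0.46 ± 0.402 CPM (6.88 ± 0.39). Ly6g5b had 2383 against 2 counts, a ratio of 778 (215 to 6430). Krt83, a keratin, and Tff1, a mucosal peptide, were at 97.8 ± 27 and 73.1 ± 34.2 CPM in the CNS and at 0.845 ± 0.551 and 0.847 ± 1.47 CPM in culture.

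In culture they were Il3, Ebf1, Il24, Mgarp, Inhba, Muc2, Selenbp1, Itga7, Serpinf1, Bnip3, Timp1, Gja1, Upp1, P4ha2 and Scd2. Inhba, the subunit of activin A, was at 321, 259 and 356 CPM in culture and at 0.691, 0, 0.377 and 0.575 CPM in the CNS (-9.53 ± 0.28, edgeR adjusted p = 1.07e-08). Serpinf1, an anti-angiogenic secreted protein, was at 535 ± 51.8 CPM in culture and 8.35 ± 3.23 CPM in the CNS (-6.03 ± 0.23). Selenbp1, a selenium-binding protein, was at 256 ± 8.08 and 0.848 ± 1.19 CPM (-8.20 ± 0.46), and Itga7, a laminin-binding integrin chain, at 102 ± 4.96 and 0.479 ± 0.836 CPM (-7.91 ± 0.44). Muc2, an intestinal mucin, had 1088 counts in culture and 2 in the CNS, a ratio of 833 (230 to 6890), and Mgarp 1350 and 2, a ratio of 1030 (286 to 8540). Timp1, an inhibitor of matrix proteases, Gja1, a gap junction protein, and Upp1, a uridine phosphorylase, differed by -5.87 ± 0.25, -5.84 ± 0.36 and -5.35 ± 0.14. When all 31 libraries were scaled together, a different scaling from that of the values above, Inhba in all 12 cultures, the treated ones included, lay between 152 and 351 CPM and Selenbp1 between 176 and 261 CPM, and in all 19 CNS libraries between 0 and 5.44 and between 0 and 7.48 CPM.

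Another pair of groups that shares none of the 7 libraries allowed each value to be set beside one from other libraries. It compared 5 GR WT CNS libraries, from Th17Hom cells transferred and sorted in the same way, with 3 cultures given TGF-β1. Those cultures belong to the same experiment as the untreated ones. Setting, Th17 type, experiment and receptor use differed together here too, so the pair is not independent of the main comparison in design. Sex-linked transcripts also went with setting in this pair, with 0 Xist and 133 to 234 Y counts in the CNS libraries. The TGF-β1 cultures held 182 to 215 Xist and 0 Y counts. These cultures differ from the main ones in treatment, and these CNS libraries from the main ones in sex-linked transcripts and myeloid content. In the CNS libraries 0.336% to 1.01% of counts fell on the 10 defining markers. Of 10736 genes tested, 1373 (12.8%) were called, 874 (8.14%) higher in the CNS and 499 (4.65%) higher in culture. Over 10100 genes tested in both, 417 and 511 were called higher in the CNS, and 322 in both, which was 77.2% of the former and 63% of the latter. Of 568 and 463 called higher in culture, 373 were shared, 65.7% and 80.6%. Opposite calls were made for 2 genes, Ly6i and Ms4a4a, both higher in culture in the main comparison, named here after their values were seen. Cxcr6 differed by 7.20, Ccr2 by 6.27, Slc2a3 by -4.25, Bnip3 by -5.28 and Cyp11a1 was again without a CNS count, at 55.5 CPM in culture. The microglial C1qa reached 921 CPM in these CNS libraries, against 49.4 CPM in the main ones.

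Other genes did not follow. Il17f was higher in the TGF-β1 cultures by a log2 fold change of -2.57 and Il17a was at 11.3 CPM in the CNS and 41.6 CPM in culture, not called (-1.86). Ccr6 was at 22 and 51 CPM there (-1.20) and Il18r1 at 48.5 and 13.4 CPM (1.87), neither of them called, although each was called higher in the CNS in the main comparison. The type 2 cytokine Il13 was at 2.79 and 4.02 CPM (-0.47) and Il3 at 3.35 and 11.8 CPM (-1.76), both uncalled, while Il9 and Il24 were again higher in culture, at 271 and 695 CPM there. Gzmb and Atf3 were not called either, at -1.56 and -0.67. The pairs differ in TGF-β1 between the cultures, and in sex-linked transcripts, myeloid share and experiment between the CNS groups. Main pair first, Il13 was at 36.7 and 4.02 CPM in the cultures and 0.352 and 2.79 CPM in the CNS. Atf3, in the same order, was at 78.6 and 62.9 CPM in the cultures and 4.53 and 40 CPM in the CNS. Ccr6 differed on both sides, at 8.24 and 51 CPM and at 73.7 and 22 CPM. The pairs were scaled separately. Sex, myeloid share and CNS experiment cannot be told apart, and the cause of the differences was not tested.

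**Figure D5:**
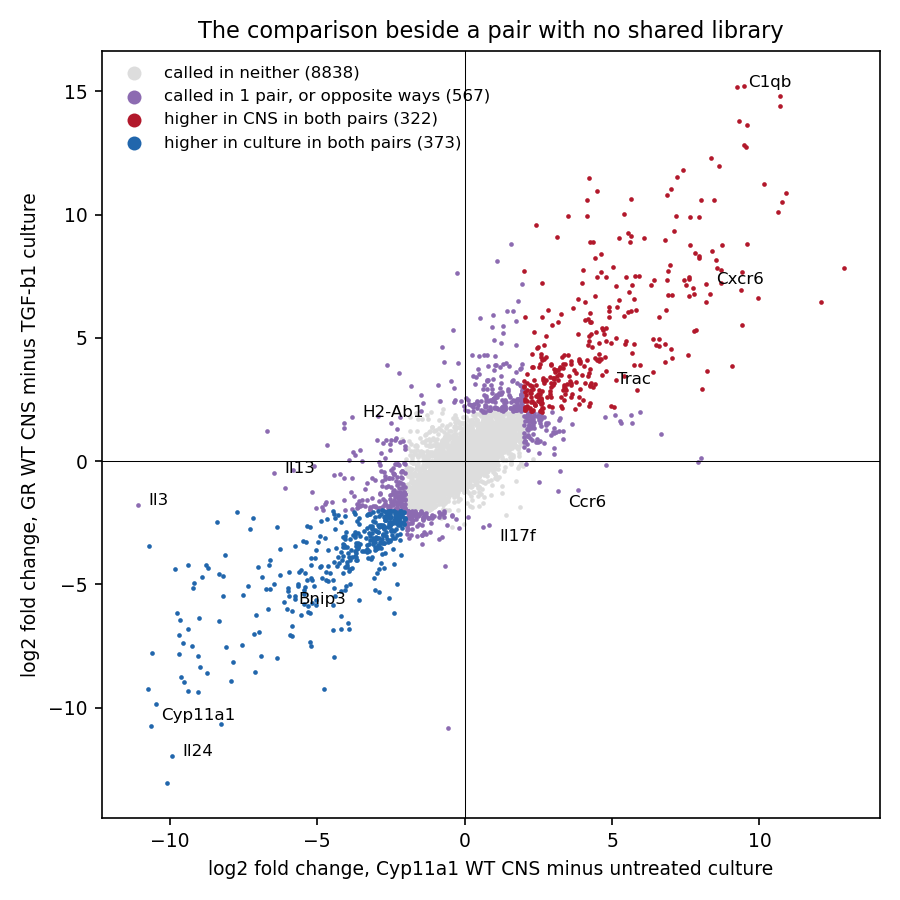
Log2 fold change in the main comparison (horizontal, 4 CNS against 3 untreated culture libraries) and in a pair without shared libraries (vertical, 5 GR WT CNS against 3 TGF-β1 culture libraries) for 10100 genes. Genes called the same way in both are red (322, higher in the CNS) or blue (373, higher in culture), and Il13, Il3, Ccr6, Il17f and H2-Ab1 lie away from the diagonal.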

How the data were processed

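Libraries were made from polyA RNA by SMART-Seq2 in modified form, without marking strand (Nextera XT), with 12 amplification cycles and no molecular identifiers, per the labels' protocols. The authors deposited gene counts as whole numbers in 1 table per experiment, and RSEM 1.3.3 and mm10 are named in the submitters' processing notes. Counts joined by symbol were tested with edgeR 4.0.16 in R 4.3.3 (filterByExpr, TMM scaling, robust quasi-likelihood F test, Benjamini-Hochberg adjustment). The same fit was run on simulated counts with equal dispersion for all genes, a simpler setting than these data, and nothing is read from it here. Levels are CPM from totals scaled by TMM. The smallest depth was 2915353 counts. Of 31053 symbols, 30464 were found in GENCODE M21. The rule named Cyp11a1, Nr3c1, list members, receptor segments and 15 genes per direction with the largest fitted fold change and a mean of at least 50 CPM in the higher group, leaving out predicted genes, receptor segments and pseudogenes. The members and the 33 gene lists were chosen with earlier results of these data known, and no set test was made. Some list members are counted in their lists but not reported here by name. Alternatives covered scaling, filters, DESeq2 1.42.0, limma 3.58.1, thresholds, other groups and each library left out.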

Additional observations from a re-analysis of the deposited data

Results flagged for a closer look

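Among 170 genes examined, 7 had 1 CNS library whose gap to the nearest other was above Dixon's critical value at the 95% level, and chance flags about 1 in 20 groups. In CNS replicate 1, Fos was at 176 CPM against 80.8 to 92.5 CPM in the others, Ifit3 at 19.8 against 11.2 to 11.8 CPM, Nt5e at 89.6 against 51.8 to 56.9 CPM and Lgmn at 17.3 against 23.2 to 24.4 CPM. In CNS replicate 3, Il24 was at 2.64 CPM and had no count in the others. In CNS replicate 4, Itga7 was at 1.73 CPM against 0 to 0.189 CPM, and Tsc22d3, a glucocorticoid target, at 127 against 40.9 to 52.6 CPM. The groups of 3 cultures were not examined in this way.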

How the results depend on the processing

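The 1110 calls became 420 with a mean count of at least 50, 649 when a 4-fold difference was itself tested with glmTreat, and 5122 with no fold threshold. Higher in the CNS these settings gave 198, 284 and 2500 against 469, and higher in culture 222, 365 and 2622 against 641. With GR WT CNS as the CNS group 877 genes were called higher in the CNS. Leaving out 1 library gave 1047 to 1237 calls, 421 to 550 higher in the CNS and 616 to 708 higher in culture, and 1284 to 1476 in the other pair of groups. Scaling by library totals moved the median log2 fold change to -0.26 and the share of calls higher in the CNS from 42.3% to 33.7%. The replicate block gave 1119 calls, 1055 of them shared, and 1384 in the other pair. Replicate numbers share only a name, with deviation correlations of -0.037, -0.0073 and -0.025. Of 3717 gene values under alternatives, 3585 kept direction and side of the threshold. That total pools settings that could change little with strict ones. Under glmTreat, 142 of 180 named genes kept their side and 38 lost their call. With GR WT CNS as the CNS group the sign turned for Abca1 (1.73), Ccl22 (1.89), Cd4 (-0.0195), H2-Ab1 (1.84), Il17a (-0.61), Il17f (-0.33), Il23r (-0.80) and Trbc1 (-0.30), and with the TGF-β1 culture for Il17f (-1.42). The cause was not tested. Levels under about 1 CPM lie near the limit that depth sets.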

Other observations

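Several levels separated CNS replicates 1 and 4 from replicates 2 and 3, a division chosen after the values were seen and not tested. Il18r1 was at 107, 59, 52.4 and 105 CPM in replicates 1 to 4, Itgae at 37.3, 15.8, 17.3 and 36.8 CPM, and Apoe at 173, 45.7, 29.2 and 216 CPM. The summed cholesterol synthesis genes were at 354.5, 537.2, 525.9 and 379.3 CPM. The 16 abundant predicted genes took 30%, 26%, 17.3% and 39.3% of the counts in the same order.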
